A study of Mus musculus with 12 samples.

Results

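Genes for polypeptide growth factors, their receptors and the proteins that bind insulin-like growth factors were followed in fallopian tubes of mogp-TAg and wildtype mice. A gene belonged to the set if its symbol began with Igf, Igfbp, Fgf, Bmp, Tgfb, Inhb, Gdf, Vegf or Pdgf and went on as the numbered or lettered ligands and receptors of those families do, or if it was Egf, Egfr, Areg or Hbegf. Gdf9 was left out. The rule used names alone and no measured value. It found 62 genes with values, read by 87 probes, among 11229 measured genes. The array annotation holds 88 symbols that fit the rule, and the other 26, among them Egf, Bmp2, Fgf2, Fgfr4, Igfbp1 and Pdgfd, were not analysed here. For 5 genes (Bmp1, Bmp2k, Fgfr1op2, Igf2bp3 and Tgfbrap1) the symbol fits but the product belongs to none of these families, and they are described apart. Fgf12 and Fgf13 encode FGF-like proteins that act inside the cell, and they were kept in the count of FGF ligands.

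The mogp-TAg mice carry a transgene in which the oviductal glycoprotein promoter of the mouse, used by secretory epithelial cells, drives the large T antigen of SV40. The tubes came from 3 mogp-TAg females, 1 aged 7 weeks, 1 aged 8 weeks and 1 aged 9 weeks, and from 3 wildtype females, 1 each at the same ages. The labels give C57BL6 as the genetic background of both genotypes. Every mouse was measured on 2 Illumina BeadChip arrays, called repeat 1 and repeat 2, and the mouse was the replicate. Each genotype thus holds 3 mice that also differ in age. The genotype p-values set the difference in means against the spread between mice of a genotype, which holds differences of mouse and of age. RNA came from the dissected tube and not from sorted cells, so fewer cells of a type and less RNA per cell cannot be told apart.

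Insulin-like growth factors signal through a tyrosine kinase receptor, Igf1r, while Igf2r takes up IGF-II for breakdown and binding proteins hold the ligands outside the cell and carry, release or withhold them. Fibroblast growth factors (FGFs), vascular endothelial growth factors (VEGFs), platelet-derived growth factors (PDGFs) and epidermal growth factor (EGF) relatives also act through tyrosine kinase receptors. Transforming growth factor beta (TGF-beta), bone morphogenetic proteins (BMPs) and activins bind paired serine/threonine kinase receptors that phosphorylate SMAD proteins. In the oviduct these ligands are made by muscle, stroma and epithelium, and the oviduct is known as a source of IGFs for the early embryo.

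Median signal was 245 to 332 on the repeat 1 arrays and 136.9 to 189.6 on the repeat 2 arrays before normalization between arrays. Normalized signals are given on a linear scale in arbitrary units, as the mean (geometric) of a mouse's 2 arrays, and differences are mogp-TAg minus wildtype on the log2 scale. Where several probes read a gene, the brightest on average stands for it. Probes differ in brightness by design, so the highest signal of a family picks a gene to show and does not rank expression. Dim genes sit on a background that no probe falls below, which understates their folds. A gene is called near the array floor where its mean signal was below 125, the lower quartile of all probes, and 13 of the 62 genes were near the floor in both genotypes. Markers of the labelled tissue were present, with 0 of 9 secretory cell markers and 0 of 11 epithelial markers near the floor in both genotypes. Proliferation markers were higher in mogp-TAg tubes for 9 of 9 measured genes (median log2 difference 3.08).

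Of the 62 genes, 4 were higher and 8 were lower in mogp-TAg tubes (limma, adjusted p below 0.05), against 10.4% higher, 12.5% lower and 22.9% in either direction among all 11229 genes. The called genes made up 19.4% of the set, near the share among all genes. The lower genes were Igfbp5, Igfbp6, Igfbp4, Igf2r, Fgfrl1, Tgfb3, Bmp1 and Pdgfc, and the higher ones were Igf2bp3, Vegfd, Tgfbr1 and Fgf7. The median difference of the set was -0.10 (quartiles -0.32 and 0.14), beside -0.016 over all genes (quartiles -0.23 and 0.17). At an unadjusted p below 0.05 there were 23 genes (37.1%), beside 37.2% of all genes. Signals of the 3 mogp-TAg mice and the 3 wildtype mice did not overlap for 27 genes, 43.5% of the set, beside 41.1% of all genes.

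**Figure D1:**
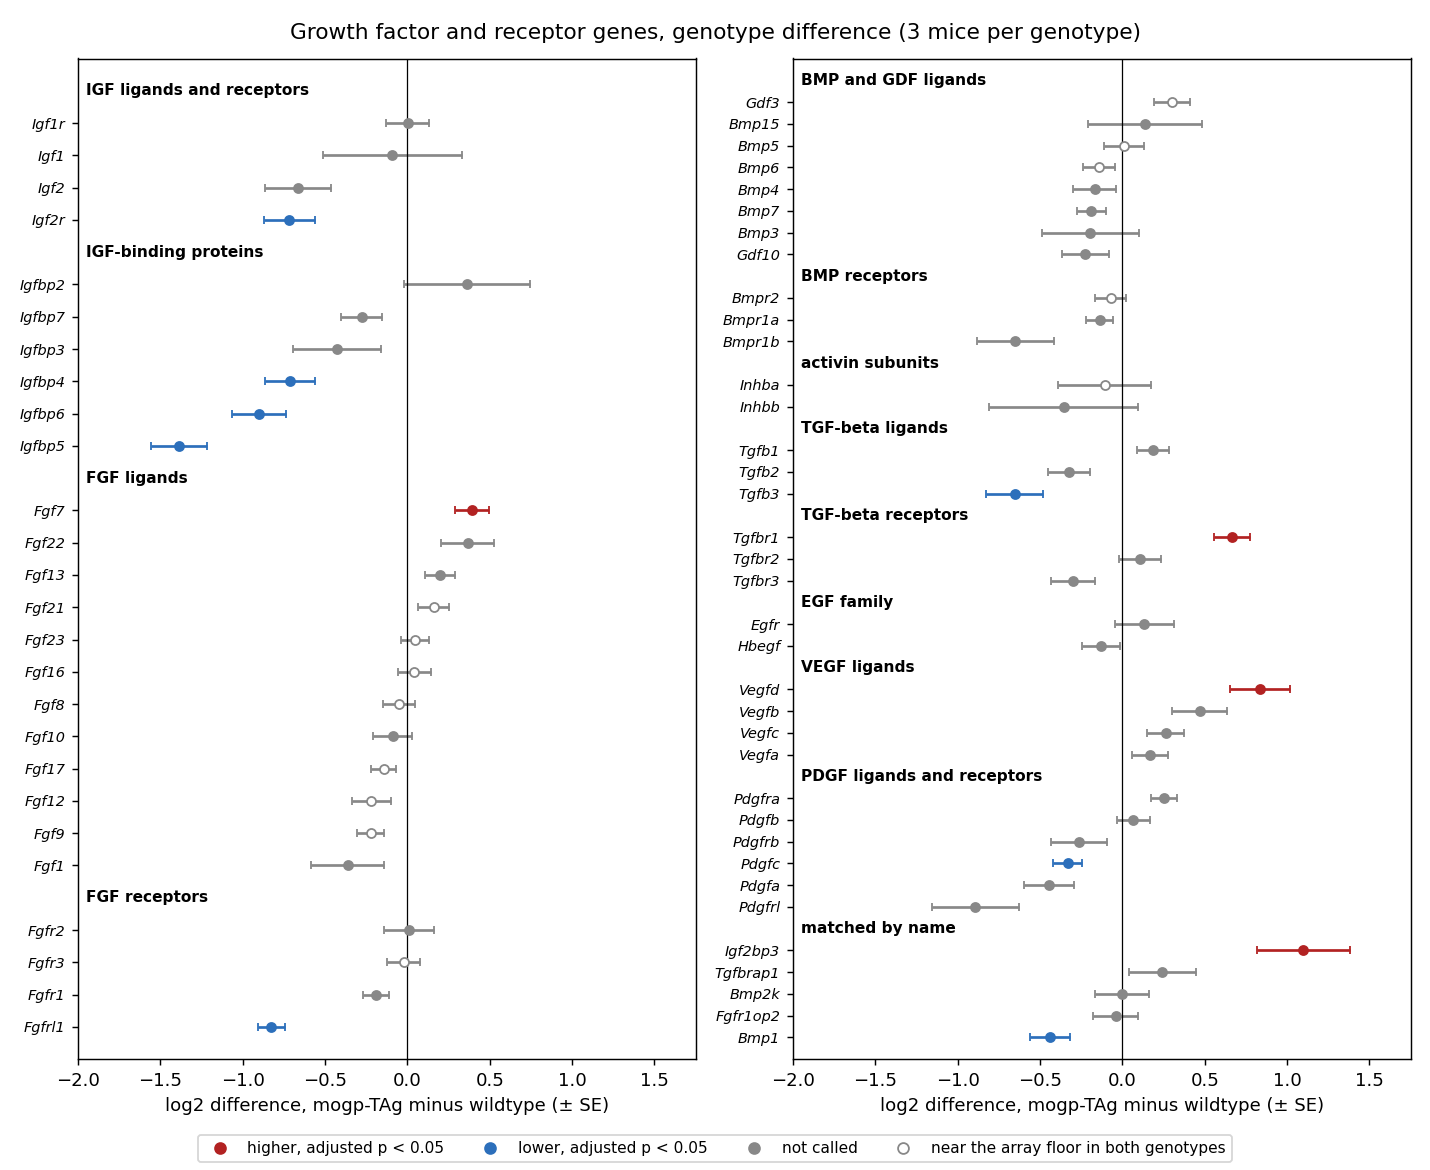
Log2 difference, mogp-TAg minus wildtype, for each of the 62 genes by family, with bars of 1 standard error (3 mice per genotype). Red and blue points passed the test as higher (4 genes) and lower (8 genes), grey points did not, and open points lay near the array floor in both genotypes.

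Among IGF-binding proteins, 3 of 6 measured genes fell and 0 rose, beside 12.5% lower and 10.4% higher among all genes. The same shares stand beside the counts of the other families below. Each family holds few genes, and no family was tested as a whole. Igfbp5, whose product binds IGFs and also sticks to extracellular matrix, had normalized signals of 2191, 2859 and 3473 in mogp-TAg mice of 7, 8 and 9 weeks, against 7506, 6607 and 7839.8 in wildtype mice of those ages. Every mogp-TAg mouse lay far below every wildtype mouse, and the 7-week mogp-TAg mouse was the lowest. The difference was -1.39 (SE 0.17, limma adjusted p = 0.00163), or 2.61-fold lower, the largest fall in the set. Igfbp6, which prefers IGF-II over IGF-I, stood at 1142, 1047 and 1431 in mogp-TAg mice, against 2105, 1945 and 2715 in wildtype mice. The 9-week mouse was the highest in both genotypes, and the groups did not overlap. Igfbp6 was 1.87-fold lower (log2 -0.90, SE 0.16, limma adjusted p = 0.00847). For Igfbp4, whose product inhibits IGF action until the protease PAPP-A cleaves it, signals were 3474, 2874 and 2826 in mogp-TAg mice, against 6065, 4153 and 4932 in wildtype mice. The groups again stood apart, and the 7-week mouse was the highest of each. Its fall was 1.64-fold (log2 -0.71, SE 0.15, limma adjusted p = 0.0168), and a second, dimmer probe of Igfbp4 fell by 1.0 on the log2 scale. Leaving out the 8-week mogp-TAg mouse ended the Igfbp4 call (adjusted p = 0.0754), and so did leaving out either 9-week mouse.

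The other binding proteins did not pass. Igfbp7, a relative that binds IGFs weakly and is abundant in vessels and smooth muscle, had 12797, 10039.8 and 12490.1 in mogp-TAg mice, against 14963, 12628 and 15118 in wildtype mice, the highest signal of the family. The 7-week mogp-TAg mouse lay just above the 8-week wildtype mouse, so the groups overlapped. Its difference was -0.28 (95% interval -0.57 to 0.017, limma adjusted p = 0.162), while median scaling gave -0.46 and a call (adjusted p = 0.0399). Igfbp3, the main carrier of IGFs in blood, had 278, 200.3 and 204 in mogp-TAg mice, against 369, 195 and 382 in wildtype mice. The arrays of the 7-week mogp-TAg mouse disagreed, at 200 on repeat 1 and 384 on repeat 2. The 8-week wildtype mouse was the lowest of all 6 and the other wildtype mice were the highest, so the groups overlapped (difference -0.43, limma adjusted p = 0.303). Igfbp2, which binds both IGFs, had 172, 289 and 502 in mogp-TAg mice, against 192, 318 and 192 in wildtype mice. Only the 9-week mogp-TAg mouse stood above the wildtype range, and the difference of 0.36 did not pass (interval -0.53 to 1.25, limma adjusted p = 0.544). Igfbp2 and Igfbp5 are next to each other among the protein-coding genes of chromosome 1, and the first spread by mouse while the second separated by genotype.

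The promoters of the 3 binding protein genes that fell, and of Igf2bp3, the gene of the set that rose most, are given because those genes moved furthest or together. Each window runs from 250 bases before the RefSeq start to 50 bases after it, on the gene's own strand, in build GRCm38.p6. The windows are chr1:72874816-72875115 on the minus strand for Igfbp5, chr15:102143936-102144235 on the plus strand for Igfbp6, chr11:99040994-99041293 on the plus strand for Igfbp4 and chr6:49214905-49215204 on the minus strand for Igf2bp3. Capitals mark a match to the TATA box letters TATAAA on either strand.
Igfbp5: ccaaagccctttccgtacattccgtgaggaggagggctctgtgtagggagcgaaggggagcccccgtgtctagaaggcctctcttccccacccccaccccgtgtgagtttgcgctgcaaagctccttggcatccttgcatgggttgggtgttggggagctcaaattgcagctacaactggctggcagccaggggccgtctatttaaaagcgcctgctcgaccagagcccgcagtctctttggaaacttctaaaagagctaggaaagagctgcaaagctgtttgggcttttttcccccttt
Igfbp6: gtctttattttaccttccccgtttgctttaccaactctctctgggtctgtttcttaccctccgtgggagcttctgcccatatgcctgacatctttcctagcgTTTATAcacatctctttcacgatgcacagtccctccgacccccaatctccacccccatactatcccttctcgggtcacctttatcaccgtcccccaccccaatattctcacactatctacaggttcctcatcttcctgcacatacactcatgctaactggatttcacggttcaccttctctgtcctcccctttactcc
Igfbp4: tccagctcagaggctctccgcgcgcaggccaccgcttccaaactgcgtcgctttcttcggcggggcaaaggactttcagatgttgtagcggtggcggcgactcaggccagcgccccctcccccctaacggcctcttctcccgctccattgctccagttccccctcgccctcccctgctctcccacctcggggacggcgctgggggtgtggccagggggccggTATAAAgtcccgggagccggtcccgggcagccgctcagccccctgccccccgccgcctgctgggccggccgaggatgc
Igf2bp3: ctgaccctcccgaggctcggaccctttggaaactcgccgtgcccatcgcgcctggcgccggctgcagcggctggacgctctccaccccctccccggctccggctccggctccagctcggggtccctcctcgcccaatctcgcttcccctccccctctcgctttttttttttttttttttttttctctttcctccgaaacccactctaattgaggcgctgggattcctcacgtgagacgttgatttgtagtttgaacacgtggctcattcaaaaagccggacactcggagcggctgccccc

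Windows were on hand for 47 of the 62 genes (65 windows). TATAAA was searched on both strands, with the GC box GGGCGG and the E2F motif, taken as TTTCCCGC, TTTGGCGC, TTTCGCGC or TTTGCCGC. Igfbp4 held TATAAA at -28 from the start. In the Igfbp6 window the match lay at -148 and read on the reverse strand. The windows of Igfbp5 and Igf2bp3 held none of these motifs, and none of the 4 windows held a GC box or an E2F match. TATAAA stood in 13.8% of the set's windows, beside 13.6% of 32851 windows of the table. The GC box was in 56.9% of the set's windows, beside 35.7% of all, and the E2F motif was in 3.08%, beside 2.26% of all. A match is a string of letters in these windows and not a measured site.

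Of the IGF ligands and receptors, 1 of 4 fell and 0 rose. Igf2r, the mannose 6-phosphate receptor that clears IGF-II and sorts lysosomal enzymes, had signals of 416, 422 and 392 in mogp-TAg mice, against 682, 538 and 834 in wildtype mice. The mogp-TAg mice were close together and all below the wildtype mice, which spread more widely. The gene was 1.65-fold lower (log2 -0.72, SE 0.15, limma adjusted p = 0.0167), and its second probe fell by 0.74 on the log2 scale. Igf2, the ligand it clears and a growth factor expressed mainly from the paternal allele, had 643, 466 and 419.7 in mogp-TAg mice, against 995, 750.3 and 669.9 in wildtype mice. The groups did not overlap, and in both genotypes the 7-week mouse was the highest and the 9-week mouse the lowest. The difference of -0.66 (95% interval -1.13 to -0.20) just missed the threshold (limma adjusted p = 0.0525). It passed with age as a block (limma adjusted p = 0.00649) and with the repeat number as a replicate block (limma adjusted p = 0.0153). The replicate block was fitted to single arrays with a shared within-mouse correlation, not to mouse means. It called 4472 of all 16664 probes, in place of 3570. In all, Igf2 passed in 10 of 18 alternatives.

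Igf1, the ligand that growth hormone induces in liver and that many stromal cells make, varied between mice more than between genotypes. Signals were 797, 1185 and 1782 in mogp-TAg mice, against 1169, 2253 and 771 in wildtype mice. The 8-week wildtype mouse was the highest and the 9-week wildtype mouse the lowest, with the mogp-TAg mice in between. The interval of the difference, -1.07 to 0.89, held changes of either sign (limma adjusted p = 0.906). Igf1r, the signalling receptor, differed by 0.0027 with an interval of -0.30 to 0.31, from signals of 242, 184 and 183 in mogp-TAg mice and 201, 186 and 216 in wildtype mice.

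**Figure D2:**
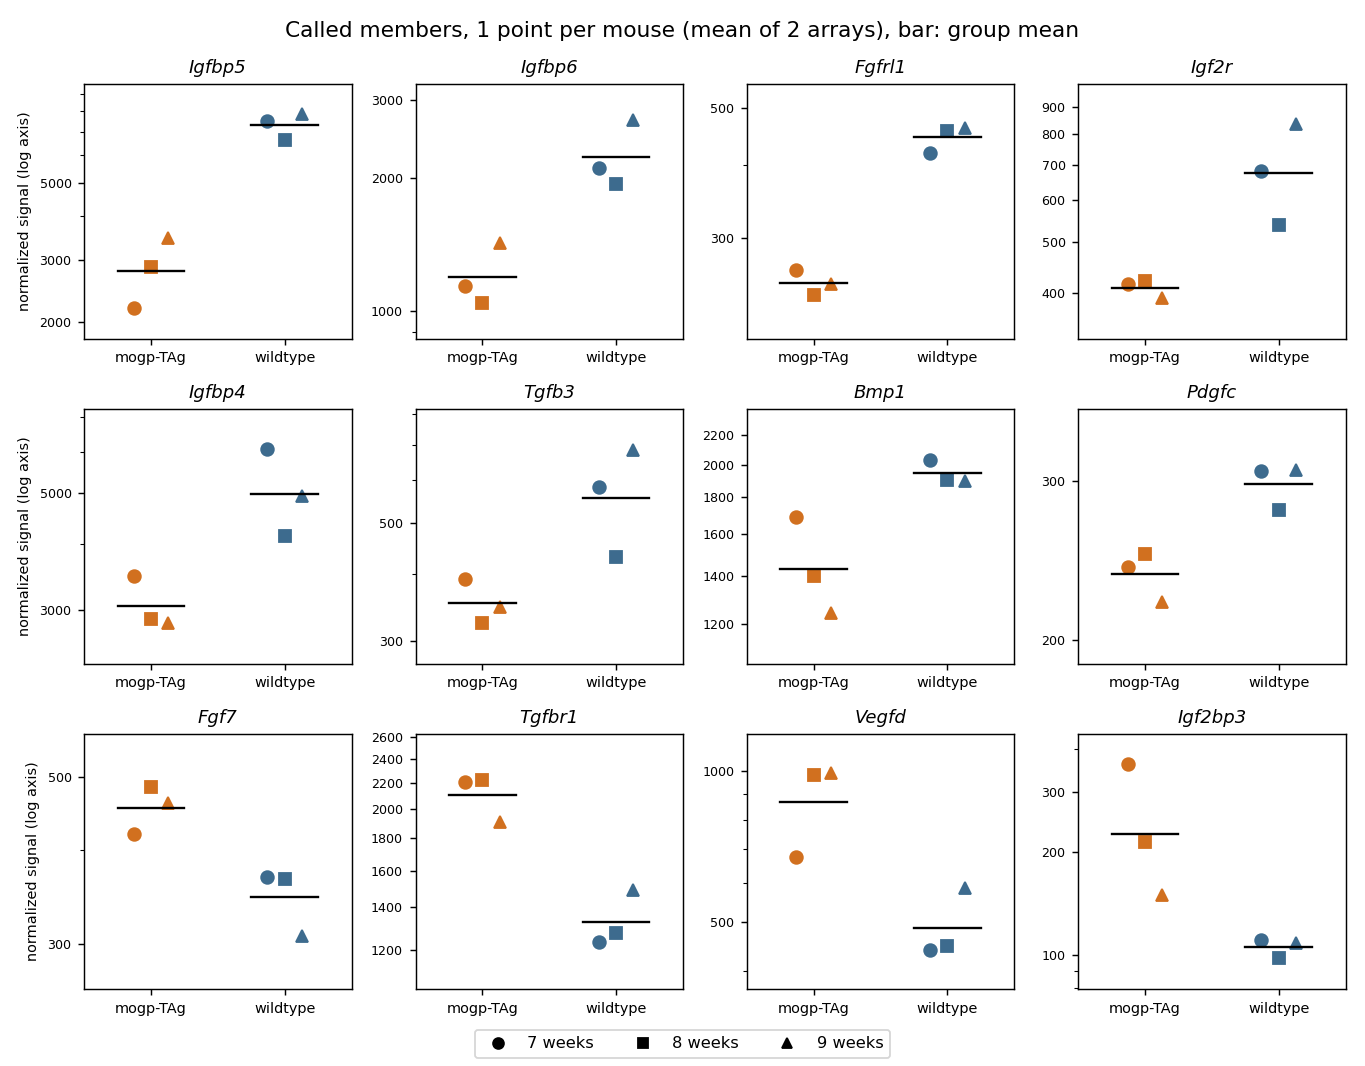
Normalized signal (log axis) of the 12 genes that passed the test, 1 point per mouse by age, with mogp-TAg mice left and wildtype mice right and a bar at the group mean. The groups do not overlap in any of the 12 panels, which the selection by the test favours, and 41.1% of all genes do not overlap. Igfbp5 shows the widest gap of the lower genes.

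Markers of several cell types of the tube wall moved in the same direction as the lower genes, and those of other cell types did not. Among all genes 12.5% were lower and 10.4% higher. Of 12 measured smooth muscle markers 9 were lower and 0 higher, with summed signals of 40659 to 48355 in mogp-TAg mice, against 63720 to 69629 in wildtype mice. Des, the muscle filament desmin, differed by -2.14 and the muscle myosin gene Myh11 by -1.04, while Acta2, smooth muscle actin, differed by -0.083 and did not pass. Mesothelial markers were lower for 8 of 9 (sums 4107 to 4708 in mogp-TAg mice, 8141 to 10428 in wildtype mice). Of 11 fibroblast and stroma markers, Pdgfra among them, 4 were lower and 1 higher (sums 29470 to 35563 in mogp-TAg mice, 33526 to 45774 in wildtype mice), and adipocyte markers were lower for 4 of 8 (2018 to 3521 in mogp-TAg mice, 4548 to 5808 in wildtype mice). The part of these cell types in the falls of the binding proteins, Igf2r, Tgfb3 and the other lower genes was not tested. Epithelial markers were higher for 1 of 11 and lower for 0, and markers of secretory cells were higher for 3 and lower for 2 of 9. Ciliated cell markers were lower for 8 of 10 (sums 2709 to 4173 in mogp-TAg mice, 9318 to 11505 in wildtype mice). Myeloid markers were higher for 3 and lower for 2 of 9 (sums 5377 to 11882 in mogp-TAg mice, 3866 to 5448 in wildtype mice).

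FGF ligands held 1 higher and 0 lower gene among 12, and 7 of the 12 lay near the array floor in both genotypes. The 12 include the intracellular Fgf12 and Fgf13. Fgf7, the keratinocyte growth factor that stroma makes for epithelium, had 421, 484 and 462 in mogp-TAg mice, against 368, 366 and 308 in wildtype mice. The groups did not overlap, and the gap between them was small. Fgf7 was 1.31-fold higher (log2 0.39, SE 0.11, limma adjusted p = 0.0361) and lost its call in 9 of 18 alternatives. Fgf10, its close relative with the same epithelial receptor, differed by -0.089 (interval -0.36 to 0.19). Fgf1, a ligand of all FGF receptors that lacks a signal peptide, gave the highest signal of the family, with 1524, 1214 and 979 in mogp-TAg mice, against 2094, 1441 and 1277 in wildtype mice. Both genotypes had the highest signal at 7 weeks and the lowest at 9 weeks, the groups overlapped, and the difference of -0.36 did not pass (limma adjusted p = 0.286). With age as a block it passed (limma adjusted p = 0.0455). Fgf22 (0.37), and Fgf13 (0.20) of the intracellular FGF-like group, did not pass. The 7 genes near the floor, Fgf8, Fgf9, Fgf12, Fgf16, Fgf17, Fgf21 and Fgf23, had differences between -0.22 and 0.16. The lowest, of Fgf9, passed with the replicate block (limma adjusted p = 0.0411).

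Of 4 FGF receptors, Fgfrl1 fell and the others did not pass. Fgfrl1 encodes a receptor that binds FGFs but lacks the kinase domain. Its signals were 264, 240.3 and 250.3 in mogp-TAg mice, against 419, 456 and 462 in wildtype mice. Both groups were tight and far apart at every age. The difference of -0.83 (SE 0.085, limma adjusted p = 0.000866), or 1.77-fold lower, had the lowest adjusted p of the set. Fgfr2, whose epithelial form is the receptor of Fgf7 and Fgf10, had 371, 369 and 324 in mogp-TAg mice, against 439, 333 and 298 in wildtype mice, with overlapping groups. Its difference was 0.0096, with an interval of -0.34 to 0.36 and a sign that turned negative under median scaling (-0.00060). Fgfr1 differed by -0.19 (limma adjusted p = 0.140), and Fgfr3 lay near the floor.

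Among TGF-beta ligands 1 of 3 fell, and among TGF-beta receptors 1 of 3 rose. Tgfb3, a ligand used in palate and epithelial seam fusion, had 392, 324 and 347 in mogp-TAg mice, against 582, 431 and 685 in wildtype mice. The 8-week mouse was the lowest of both genotypes, and the groups did not overlap. Tgfb3 was 1.57-fold lower (log2 -0.65, SE 0.17, limma adjusted p = 0.0341), and the call was lost without the 8-week mogp-TAg mouse (adjusted p = 0.127). Tgfb2 (-0.32) and Tgfb1 (0.19), the ligand best known from immune cells and fibrosis, did not pass.

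Tgfbr1, the type I receptor kinase that phosphorylates SMAD2 and SMAD3, had 2208, 2223 and 1914 in mogp-TAg mice, against 1232, 1275 and 1491 in wildtype mice. The 9-week mice of the 2 genotypes were the closest pair, and the groups did not overlap. The brightest probe was 1.59-fold higher (log2 0.67, SE 0.11, limma adjusted p = 0.00550). The other probes of Tgfbr1, both much dimmer, differed by 0.24 and 0.0029 and did not pass, so the rise rests on 1 probe. Tgfbr2, the type II receptor that binds ligand first, had 2935, 3249.5 and 3548 in mogp-TAg mice, against 3153, 3368 and 2546 in wildtype mice. The groups overlapped, and the difference was 0.11 (interval -0.19 to 0.41), turning to -0.0041 under median scaling. Tgfbr3, the coreceptor betaglycan, differed by -0.30 (limma adjusted p = 0.153), while its dimmer probe differed by 0.26, with neither called.

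No BMP or growth differentiation factor ligand (8 genes), BMP receptor (3) or activin subunit (2) passed by limma, and at an unadjusted p below 0.05 there were 1 ligand, 1 receptor and 0 subunits. Gdf10, a TGF-beta family ligand also called BMP3b, gave the highest signal of the ligands, with 1437, 1223 and 1692 in mogp-TAg mice, against 1678, 1499.5 and 1886 in wildtype mice. The groups overlapped in a narrow range (difference -0.22, limma adjusted p = 0.304). Bmp4 (-0.17), Bmp7 (-0.19) and Bmp3 (-0.19) did not pass, and Gdf3, Bmp5 and Bmp6 were near the floor. Among the receptors, Bmpr1b, a type I receptor with a role in ovary and skeleton, differed by -0.65 (interval -1.19 to -0.11, limma adjusted p = 0.0883), and passed with the repeat number as a replicate block (limma adjusted p = 0.0206). Its signals were 602, 484 and 363 in mogp-TAg mice, against 893, 555 and 820.2 in wildtype mice, and the 7-week mogp-TAg mouse overlapped the 8-week wildtype mouse. The highest receptor signal was that of Bmpr1a, the type I receptor needed in the early embryo, with 767, 842 and 791 in mogp-TAg mice, against 849, 869 and 922 in wildtype mice. Those groups did not overlap, yet the gap was narrow and did not pass (difference -0.14, limma adjusted p = 0.279).

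The activin subunits and Bmp15 varied by array. Inhbb, the beta B subunit of activin and inhibin, had 445, 264 and 349 in mogp-TAg mice, against 346, 949 and 262 in wildtype mice. The 8-week wildtype mouse stood far above the rest on both its arrays (984 and 915), and the interval of the difference was -1.41 to 0.70. In the 7-week mogp-TAg mouse the repeat arrays disagreed, at 302 on repeat 1 and 656 on repeat 2. Inhba, the beta A subunit, had 121 and 276 on the same arrays, and Bmp15, a ligand of the oocyte, had 139 and 434. The mouse means were 183, 92.3 and 92.8 in mogp-TAg mice and 123, 103 and 154 in wildtype mice for Inhba. For Bmp15 they were 246, 97.0 and 98.6 in mogp-TAg mice and 137, 104 and 125 in wildtype mice. These 3 genes had the widest gaps between repeats of a mouse in the set.

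On that repeat 2 array of the 7-week mogp-TAg mouse, the 7 measured granulosa and theca markers summed to 3754, beside 640 to 1078 on the other 11 arrays. The 7 measured oocyte markers summed to 3448, beside 692 to 1330. In both genotypes 5 of the granulosa and theca markers and 4 of the oocyte markers were near the floor by their mean signal. Myeloid markers summed to 19343, beside 3384 to 8536 on the others. Their part in the high Inhba, Inhbb and Bmp15 signals was not tested. With that mouse read by its repeat 1 array alone, Bmp15 differed by -0.14 in place of 0.14, and 4 genes of the set were higher and 9 lower.

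**Figure D3:**
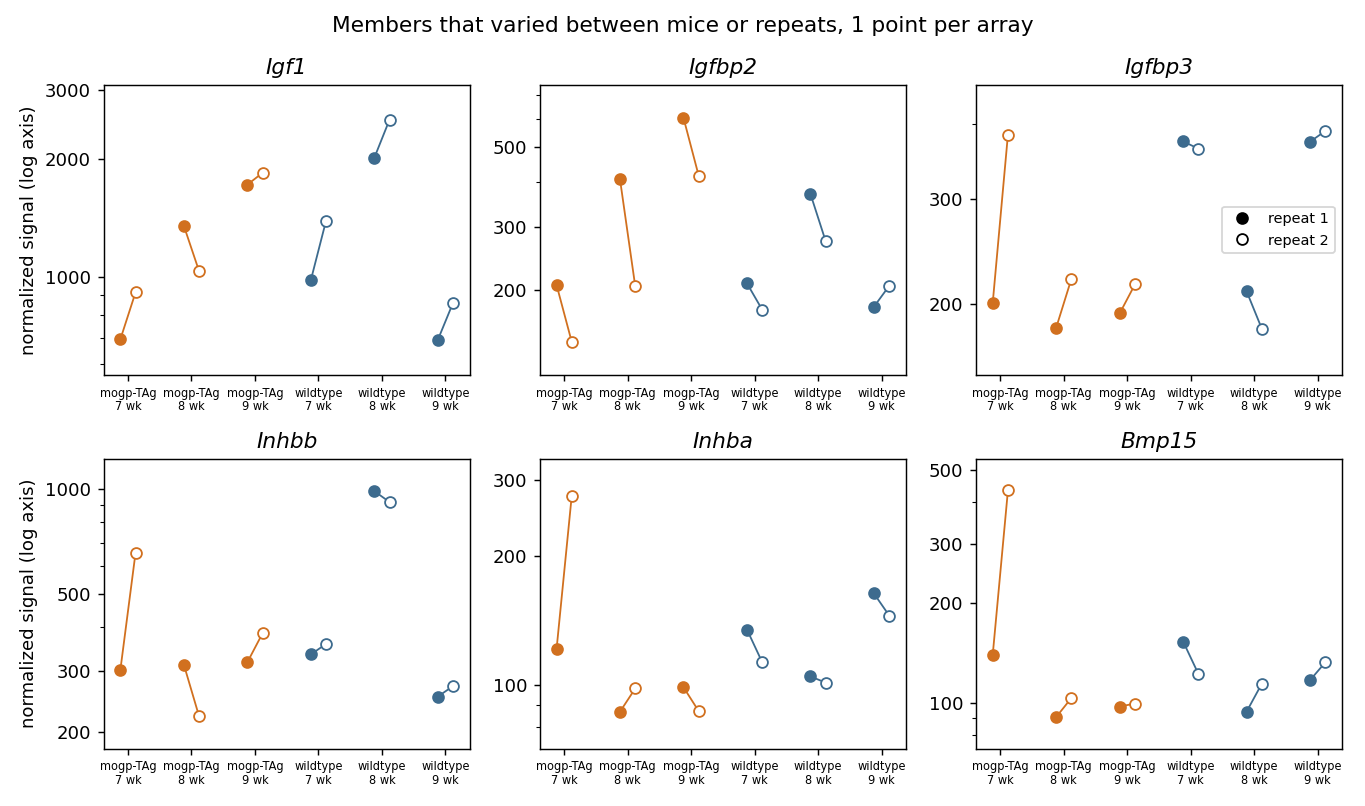
Normalized signal (log axis) of 6 genes that varied between mice or repeats, 1 point per array, mogp-TAg mice of 7, 8 and 9 weeks left and wildtype mice right, with a line joining the repeats of a mouse. Igf1 and Igfbp2 spread by mouse, and Inhbb, Inhba and Bmp15 were high on the repeat 2 array of the 7-week mogp-TAg mouse. Igfbp3 also read higher on that array than on the repeat 1 array of the same mouse.

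All 4 VEGF ligands had positive differences, and 1 passed. Vegfd, a ligand for the lymphatic receptor VEGFR-3, had 675, 984 and 991 in mogp-TAg mice, against 441, 448 and 586 in wildtype mice. The lowest mogp-TAg mouse, at 7 weeks, still lay above the highest wildtype mouse, at 9 weeks. Vegfd was 1.78-fold higher (log2 0.84, SE 0.18, limma adjusted p = 0.0171), and lost its call without the 8-week mogp-TAg mouse (adjusted p = 0.0763). Vegfb, a ligand of VEGFR-1, had 1011, 1177 and 1479.7 in mogp-TAg mice, against 922, 735 and 976 in wildtype mice. The groups did not overlap, with the 7-week mogp-TAg mouse just above the 9-week wildtype mouse, and the difference of 0.47 missed the threshold (limma adjusted p = 0.0854). With the repeat number as a replicate block it passed (limma adjusted p = 0.0262). Vegfc, the other VEGFR-3 ligand, differed by 0.26, and Vegfa, the main driver of vessel growth, by 0.17 (interval -0.084 to 0.42). The 4 differences were positive under each of the 3 other scalings, which reuse the same arrays. The share of all genes with a positive difference was not counted. Of 10 endothelial markers 4 were lower and 0 higher (sums 3391 to 4923 in mogp-TAg mice, 5423 to 6366 in wildtype mice).

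PDGF ligands and receptors held 1 lower and 0 higher gene among 6. Pdgfc, a ligand of the alpha receptor, had 241, 249 and 220.4 in mogp-TAg mice, against 308, 279 and 308 in wildtype mice. The groups did not overlap, and the 8-week mice were the closest. The fall was 1.26-fold (log2 -0.33, SE 0.089, limma adjusted p = 0.0373) and lost its call in 13 of 18 alternatives, more than any other called gene. Pdgfrl, a receptor-like protein without a kinase, had 221, 158 and 127 in mogp-TAg mice, against 428, 236 and 281 in wildtype mice. The groups did not overlap, and the difference of -0.89 just missed the threshold (limma adjusted p = 0.0504). It passed with the replicate block (limma adjusted p = 0.00721) and with age as a block (limma adjusted p = 0.00985). Pdgfa, the ligand that drives cells bearing the alpha receptor, differed by -0.45 (limma adjusted p = 0.0741).

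The alpha receptor itself, Pdgfra, a marker of fibroblasts, had 1939, 1844 and 1886 in mogp-TAg mice, against 1493, 1627 and 1637 in wildtype mice. All mogp-TAg mice were above the wildtype mice, by a small margin that did not pass (difference 0.25, limma adjusted p = 0.0629). Pdgfrb, the receptor of pericytes and muscle, differed by -0.26 (interval -0.66 to 0.14) and Pdgfb by 0.067. Of 8 pericyte markers, Pdgfrb among them, 1 was lower and 0 higher.

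In the EGF family neither Egfr nor Hbegf passed by limma, and 0 of them had an unadjusted p below 0.05. Egfr, the receptor shared by EGF and its relatives, had 472, 447 and 445 in mogp-TAg mice, against 546, 405 and 322 in wildtype mice. The mogp-TAg mice were nearly level, and all lay within the wildtype range. The difference was 0.13 (interval -0.29 to 0.55). Hbegf, a ligand tied to embryo implantation in the uterus, differed by -0.13 (interval -0.40 to 0.14).

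Of the 5 genes that match by name alone, Igf2bp3 rose and Bmp1 fell. Igf2bp3 encodes an RNA-binding protein that binds Igf2 mRNA, is made in the embryo and is often switched on again in tumours. Its signals were 359.9, 214 and 149.8 in mogp-TAg mice, against 111, 97.9 and 109 in wildtype mice. The wildtype mice were near the array floor, and each older mogp-TAg mouse was closer to them. It was 2.14-fold higher (log2 1.10, SE 0.28, limma adjusted p = 0.0319), the largest rise in the set. The call was lost on the repeat 1 arrays alone (log2 0.82, adjusted p = 0.157), where 2 genes of the set were higher.

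Bmp1 encodes a metalloprotease that trims procollagen and cleaves BMP and TGF-beta inhibitors. It had 1689, 1399 and 1243 in mogp-TAg mice, against 2031, 1906 and 1899.6 in wildtype mice. The groups did not overlap, and the 7-week mogp-TAg mouse was the nearest to the wildtype mice. Bmp1 was 1.36-fold lower (log2 -0.44, SE 0.12, limma adjusted p = 0.0398). The difference was -0.78 on repeat 1 arrays and -0.10 on repeat 2 arrays. Its other probes differed by -0.27, -0.21 and 0.033 and were not called. With the repeat number as a replicate block it did not pass (adjusted p = 0.0641). Tgfbrap1, an adaptor that binds TGF-beta receptors and serves in endosome tethering, had 2352, 1901 and 1492 in mogp-TAg mice, against 2010.2, 1514 and 1324 in wildtype mice. The groups overlapped and the 7-week mouse was the highest in each (difference 0.24, limma adjusted p = 0.444). Bmp2k and Fgfr1op2 differed by -0.002 and -0.04.

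The repeat arrays gave a second reading of each difference from the same mice. The sign was the same in both repeats for 49 of 62 genes and for all 12 called genes. The 12 were called on the mean of these same arrays, so their shared sign was largely set by the selection. Tested alone, repeat 1 called 11 genes of the set, beside 18.9% of all genes, and repeat 2 called 9, beside 16.5% of all genes. Both repeats called Fgfrl1, Igf2r, Igfbp4, Igfbp5, Igfbp6, Tgfbr1 and Vegfd. The shares of all genes with a shared sign or a call in both repeats were not counted. For Igfbp5 the difference was -1.34 on repeat 1 arrays and -1.43 on repeat 2 arrays.

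Levels also differed between the repeats within mice. Repeat 2 minus repeat 1 passed for 12 genes of the set (4 higher and 8 lower), beside 22% of all genes. Tgfb2 (-0.69), Fgfr1op2 (-0.60), Igfbp7 (-0.48) and Tgfbr2 (-0.47) were among the lower, and the higher were Bmp4, Egfr, Pdgfb and Tgfbr1. In the test of whether that repeat difference varied with genotype, 0 genes of the set and 4 of all 16664 probes passed by limma, and 6 genes of the set had an unadjusted p below 0.05 (9.68%), beside 11.5% of all genes.

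**Figure D4:**
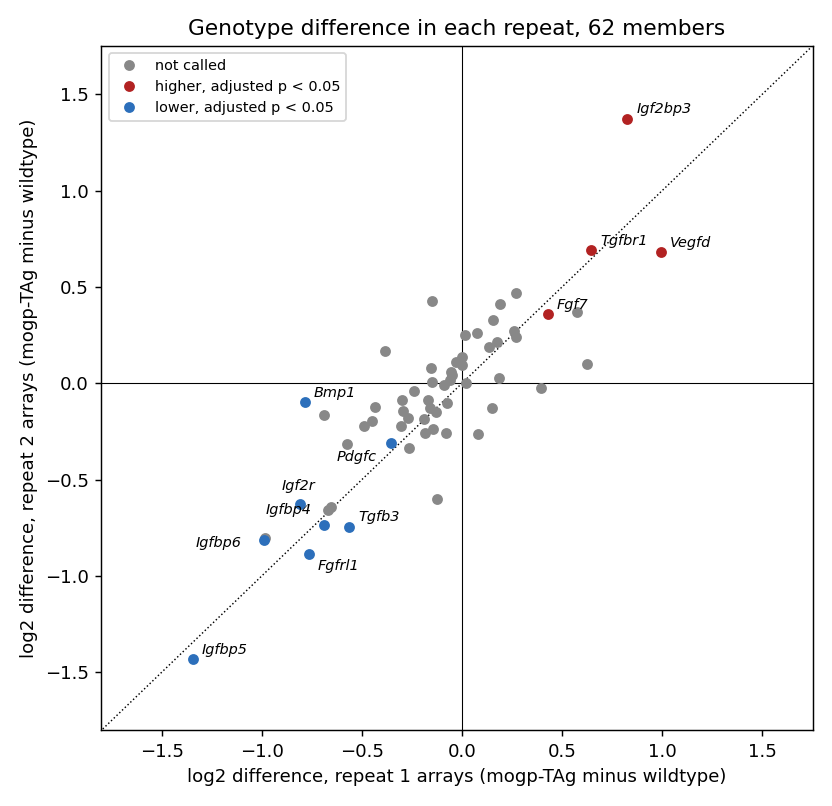
Log2 difference, mogp-TAg minus wildtype, on the repeat 1 arrays (horizontal) and the repeat 2 arrays (vertical) for the 62 genes, with the line of equal differences dotted. The 12 genes that passed the test over mouse means lie on the same side of 0 in both, which their selection on those means largely set. Bmp1 lies far from the dotted line.

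Whether the genotype difference changed from 7 to 9 weeks could be asked only with 2 residual degrees of freedom. By limma 0 of the 62 genes and 0 of all 16664 probes passed, and 6 of the set had an unadjusted p below 0.05 (9.68%), beside 7.13% of all genes. The lowest p was that of Igf2bp3, whose difference was 1.70 at 7 weeks, 1.13 at 8 weeks and 0.46 at 9 weeks (slope -0.62 per week, limma adjusted p = 0.755). Egfr followed, with -0.21, 0.14 and 0.47 at 7, 8 and 9 weeks. Igfbp2 had -0.16, -0.14 and 1.39, and the limma adjusted p of both was 0.755 as well. A difference at a single age rests on 1 mouse of each genotype.

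A trend with age shared by both genotypes passed for 0 of the 62 genes by limma, with 9 at an unadjusted p below 0.05 (14.5%), beside 8.97% of all genes. The lowest p-values belonged to Tgfbrap1 (-0.31 per week), Fgf1 (-0.34 per week) and Igf2 (-0.30 per week), each with a limma adjusted p of 0.483. In all 3 the 7-week mouse was the highest and the 9-week mouse the lowest of both genotypes.

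Genes that act with these ligands and receptors were counted in 6 lists outside the naming rule. Of 132 such genes, 3 were higher and 13 lower by limma at an adjusted p below 0.05, beside 10.4% and 12.5% of all genes, and their median difference was -0.062, beside -0.016 over all genes. The IGF list held 1 lower and 0 higher of 18. That gene was Htra3, a secreted protease with an IGF-binding protein domain, which had 579.5, 359.6 and 598 in mogp-TAg mice, against 1267, 1082 and 1507 in wildtype mice. The groups were far apart at each age, and Htra3 was 2.55-fold lower (log2 -1.35, SE 0.21, limma adjusted p = 0.00503).

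The TGF-beta list held 4 lower genes and 1 higher among 26. Ltbp1 and Ltbp4 encode latent TGF-beta binding proteins, which store the ligands in the matrix. Ltbp1 had 585, 507 and 686 in mogp-TAg mice, against 1445, 1825 and 1127 in wildtype mice (log2 -1.29, limma adjusted p = 0.00353). Ltbp4 had 1252, 1089 and 1559.9 in mogp-TAg mice, against 3071, 2735 and 2646 in wildtype mice (log2 -1.13, limma adjusted p = 0.00184). For both genes every mogp-TAg mouse lay far below every wildtype mouse. Itgav, the integrin alpha chain that can release latent TGF-beta, had 390.2, 589.9 and 363 in mogp-TAg mice, against 189, 256 and 175 in wildtype mice. It was 2.14-fold higher (log2 1.10, SE 0.21, limma adjusted p = 0.0116) with no overlap. Eng (-0.42), an endothelial coreceptor, and Dcn (-0.50), the matrix proteoglycan decorin, were the other lower genes, and both also serve as cell type markers here.

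The FGF list held 4 lower genes and 0 higher among 21. Flrt1 (-1.04), a membrane protein that binds FGF receptors, was near the floor in mogp-TAg mice, at 97.5, 98.1 and 98.7, against 206, 182 and 219 in wildtype mice. Gpc4, a heparan sulphate proteoglycan, fell by 0.64 on the log2 scale, and Flrt2 (-0.60) and Il17rd (-0.50), an inhibitor of FGF signalling, were also lower. In the BMP and activin list 1 of 27 rose and 1 fell. Smad1, which carries the BMP signal to the nucleus, differed by 0.39 (limma adjusted p = 0.0226), and Bmper, a secreted regulator of BMPs, by -0.71 (limma adjusted p = 0.0158). The VEGF and PDGF list held 3 lower genes among 21, of which Flt1 (-0.73), the receptor VEGFR-1, and Tek (-0.71), the angiopoietin receptor, are genes of endothelium and Sema3f (-0.57) is a secreted guidance factor. In the EGF receptor list Nrg4 (0.30), a ligand of ErbB4, rose, the only called gene of 19.

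**Figure D5:**
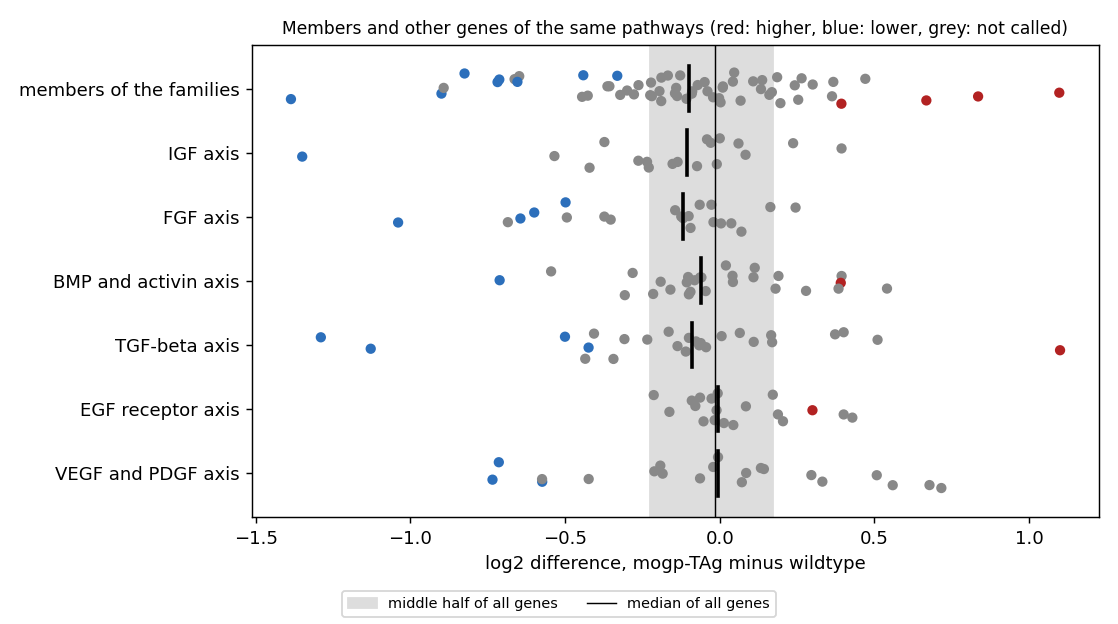
Log2 difference, mogp-TAg minus wildtype, for the 62 genes of the families (top row) and for the genes of each of the 6 pathway lists, 1 point per gene, with the list median as a thick bar. The shaded band spans the quartiles of all genes (-0.23 to 0.17), and the medians of the 6 lists lie between -0.12 and -0.0055.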

How the data were processed

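Total RNA of fallopian tubes of 6 mice was measured on 12 one-colour Illumina arrays, with cRNA made from an oligo-dT primer, per the labels' protocols. The values the authors deposited are a score, a log signal standardized within each array, and GenomeStudio 1.6.0 was used per the submitters' processing notes. The sources used here do not state a background subtraction. Scale and centre were solved from the 0.1 grid on which signals lie, starting at low signals and widening to all of them. On every array 100% of the solved values lay on that grid (tolerance 0.01 in signal units). The solved values were not compared with scanner signals. The deposited columns had medians of 0.0110 to 0.222, and the rule behind their centring is not stated. The 24 columns of a scanner table whose names match no single sample were not used. Of 25697 probes, 9033 were blank on all arrays, and 16664 were tested. The mouse was the replicate.

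Signals were quantile-normalized, put on the log2 scale and averaged over a mouse's 2 arrays. They were tested with limma 3.58.1 in R 4.3.3 (lmFit and eBayes, two-sided, 4 residual degrees of freedom) and Benjamini-Hochberg adjustment over all probes at 0.05. The interaction with age had 2 residual degrees of freedom and the shared age trend 3. Tables and plots used Python 3.11.15, numpy 2.4.6, pandas 2.3.3 and matplotlib 3.10.9. Precision is limited by having 3 mice of each genotype, and 95% intervals are those of limma.

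Per-mouse values are given for genes past the threshold, the brightest gene of each family, the 3 lowest p by age and by genotype with age, and the 3 widest repeat gaps. Of each pathway list the 2 highest and 2 lowest past the threshold are named. Igf1r, Igfbp3, Bmpr1b, Pdgfrl, the other lower pathway genes and the uncalled members were named after their values were seen. The members, lists and rules were chosen with earlier results of these data known. The repeat number pairs the arrays of different mice. Repeat 2 minus repeat 1 correlated over probes between all 15 pairs of mice (r 0.11 to 0.64). Alternatives were median scaling, normexp with an offset of 50, the deposited values, a filter on dim probes, 1 probe per gene, array weights, the replicate block, age as a block, each repeat alone, the 7-week mogp-TAg mouse by repeat 1 alone, and each mouse left out. Array weights and the replicate block were fitted to single arrays with a shared within-mouse correlation, and not to mouse means. A fit without both 7-week mice was added after seeing the data. Promoter windows came from RefSeq (GRCm38.p6), and proteins were not used here.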

Additional observations from a re-analysis of the deposited data

How the results depend on the processing

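With the repeat number as a replicate block, 5 genes of the set were higher and 11 lower in mogp-TAg tubes, beside 4 and 8 in the main fit. Over all 16664 probes the replicate block called 4472, in place of 3570, so more calls were not particular to the set. Bmp1 was the called gene that no longer passed, and Igf2, Pdgfrl, Bmpr1b, Fgf9 and Vegfb were gained. That fit also took single arrays in place of mouse means, and the part of each change was not tested. Igfbp5, Igfbp6, Fgfrl1 and Tgfbr1 passed in all 18 alternatives. The other called genes missed the threshold, with unchanged direction, in 13 (Pdgfc), 9 (Fgf7), 7 (Bmp1), 6 (Tgfb3), 5 (Igf2bp3), 4 (Igf2r), 3 (Igfbp4) and 3 (Vegfd) of them. Median scaling gave 4 higher and 11 lower genes of the set, normexp 3 and 12, array weights 5 and 12, and age as a block 3 and 10. Over all probes, 2152 were lower under median scaling and 2250 under normexp, beside 1822 in the main fit. The count of lower genes in the set thus varied with the scaling. Leaving out 1 mouse gave 1 to 5 higher and 3 to 12 lower genes. There were 1 higher and 3 lower without the 8-week mogp-TAg mouse, 2 and 3 without the 9-week mogp-TAg mouse. The counts were 1 and 5 when the 7-week wildtype mouse was dropped, 2 and 5 when the 9-week wildtype mouse was. Without the 8-week mogp-TAg mouse the adjusted p was 0.0617 for Igf2r, 0.0952 for Igf2bp3, 0.137 for Fgf7 and 0.134 for Bmp1, and without the 9-week wildtype mouse it was 0.113 for Pdgfc. Without both 7-week mice there were 3 higher and 8 lower. Repeat 1 arrays alone gave 2 higher genes. Of the pathway genes, 1 was higher under median scaling and 1 under normexp (3 in the report), and 20 were lower under normexp (13 in the report). Over all probes, array weights, also fitted to single arrays and not to mouse means, called 5315, in place of 3570. The fit without the 8-week mogp-TAg mouse called 1731. No scaling moved the median of all genes beyond -0.059. The cause of these changes was not tested.

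Of the 50 uncalled genes, 18 took both signs as each mouse was left out in turn, and 16 were run under the other alternatives. The filter on dim probes removed Inhba, so Inhba lacks that alternative. Of these 16 the sign turned for 8 under some alternative. Fgfr2 (0.0096) was -0.00060 under median scaling, -0.0088 under normexp and -0.13 on repeat 2 arrays, and ran from -0.11 to 0.17 with a mouse left out. Igf1 (-0.09) was 0.039 with array weights, 0.080 on repeat 1 arrays, 0.14 without both 7-week mice and -0.45 to 0.33 with a mouse left out. Tgfbr2 (0.11) was -0.0041 under median scaling, -0.027 under normexp and -0.011 to 0.19 with a mouse left out. Bmp15 (0.14) was -0.066 with array weights, -0.15 on repeat 1 arrays, -0.14 with the 7-week mogp-TAg mouse by repeat 1 alone, -0.22 without both 7-week mice and -0.31 to 0.36 with a mouse left out. Inhba (-0.11) was 0.17 on repeat 2 arrays and -0.43 to 0.057 with a mouse left out. With a mouse left out, Egfr ran from -0.049 to 0.33, Inhbb from -0.73 to 0.19 and Igfbp2 from -0.027 to 0.74. The 13 genes near the array floor, of which 0 were called, are those whose folds the background limits most.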
